A study of Mus musculus with 9 samples.

Results

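The 8 genes described here, *Eda2r*, *Fas*, *Tnfrsf10b*, *Perp*, *Ei24*, *Aen*, *Trp53inp1* and *Zmat3*, encode death receptors and death effectors that p53 can induce, and they are 8 of the 47729 genes listed for whole newborn mouse lenses. *Eda2r*, *Trp53inp1*, *Perp*, *Zmat3* and *Aen* were picked on their rise in *Le-Cre* lenses in these same data, and *Fas*, *Tnfrsf10b* and *Ei24* were added as further genes of the same kind. For the 5 picked genes, every *Le-Cre* value is therefore a description without a test. *Fas*, *Tnfrsf10b* and *Ei24* were tested in each comparison, and all 8 were tested in *P0-3.9GFPCre* against *FVB/N*, where the *FVB/N* pools are shared with the contrast used for picking.

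RNA-Seq was performed on non-transgenic *FVB/N* mice and on mice hemizygous for the *Le-Cre* or the *P0-3.9GFPCre* transgene, all of the *FVB/N* strain and all collected at birth. Each of the 3 lines was represented by 3 pools, and a pool held 6 lenses from 3 mice. Both transgenes drive CRE and GFP from a *Pax6* P0 promoter fragment with the ectodermal enhancer, *Le-Cre* as a nuclear CRE followed by a separately translated GFP and *P0-3.9GFPCre* as a GFP-CRE fusion. They were made by microinjection, so each line carries its transgene at its own insertion site, and no floxed gene was part of the design. An effect of CRE and one of the insertion site thus cannot be told apart within a line. Values are CPM (counts relative to the TMM-normalized size of each library) unless TPM (also scaled for gene length) is named, ± SD over the 3 pools.

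p53 is a transcription factor that accumulates after DNA damage and other stress and switches on genes for cell cycle arrest, DNA repair and cell death. Some of its targets act at the cell surface as death receptors of the tumor necrosis factor receptor superfamily, which pass a signal through adaptor proteins to caspases, and others act inside the cell, at membranes, in the nucleus or on RNA. The newborn lens consists of a proliferating epithelium and of fiber cells that dismantle their nuclei and organelles as they mature.

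Total expected counts ranged from 20670968 to 28098059 per pool. The summed level of 6 fiber markers was 146359 to 179607 CPM and that of 4 lens epithelium markers was 331 to 410 CPM over the 9 pools. The 5 keratin markers of surface and corneal epithelium, which also belong to the domain of both transgenes, summed to 0.0430 to 0.246 CPM in *FVB/N*, 0.0969 to 0.206 in *P0-3.9GFPCre* and 0.178 to 0.317 in *Le-Cre*, with *Krt14* and *Krt12* at 0 in every pool. The pools also differed in sex makeup. The summed level of 4 Y-linked genes was 132, 194 and 126 CPM in *FVB/N* replicates 1 to 3, 53.9, 135 and 1.66 in *P0-3.9GFPCre* and 1.53, 71.9 and 0.633 in *Le-Cre*. It was thus highest in *FVB/N* and lowest in *Le-Cre*, and differences fitted with this level as a covariate are given below for some members and for *Cdkn1a*. *FVB/N* and *Le-Cre* did not overlap in this level. The covariate fit therefore cannot separate sex makeup from line in that comparison, and its values are not effects of line freed of sex.

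Promoter sequence shows which of these genes carry the p53 half-site consensus next to their start. RefSeq windows on GRCm38.p6, from 250 bases before to 50 bases after a transcription start, were given for 4 of the 8 members, *Aen*, *Ei24*, *Eda2r* and *Fas*. The half-site consensus was matched without mismatch and reads alike on both strands. A match is held by 8.36% of all 32851 such windows and by 9.55% of the 27025 genes that have them. *Aen* held a match at chr7:78895937-78895946, starting at base 11 of 1 RefSeq transcript and 121 bases upstream of the start of another, and *Ei24* held one at chr9:36797335-36797344, starting 10 bases upstream of its RefSeq start. In GENCODE M21 the *Aen* match lies within 3 exons and the *Ei24* match within 2, all outside coding sequence. The *Eda2r* and *Fas* windows held no match of these letters. The stretches of 30 bases around both matches (matched letters in capitals) and the 243 bases upstream of *Eda2r*, the member with the largest fold change, are given 5′ to 3′ on the strand of the gene.
*Aen*, chr7:78895927-78895956, plus strand: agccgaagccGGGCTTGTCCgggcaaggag
*Ei24*, chr9:36797325-36797354, minus strand: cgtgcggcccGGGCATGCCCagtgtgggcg
*Eda2r*, chrX:97377217-97377459, minus strand: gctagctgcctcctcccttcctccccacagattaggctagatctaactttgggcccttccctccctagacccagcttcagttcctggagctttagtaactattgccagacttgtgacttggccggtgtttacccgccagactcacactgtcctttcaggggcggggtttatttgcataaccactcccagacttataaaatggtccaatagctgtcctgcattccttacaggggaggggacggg
The 2 matched genes did not share a pattern. *Ei24* was the flattest member across the lines, whereas *Aen* was higher in each *Le-Cre* pool than in each *FVB/N* pool.

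In *Le-Cre* lenses, all 8 members had a mean above that of *FVB/N*, and in 6 of them the lowest *Le-Cre* pool exceeded the highest *FVB/N* pool. The same held for 6.46% of all 15557 tested genes. The members' median log2 fold change was 0.43, against a median of -0.0040 over all tested genes. As 5 members were picked on this contrast, nothing follows from these counts. In *P0-3.9GFPCre* lenses, 7 of the 8 members had a mean above *FVB/N*, with a median log2 fold change of 0.21 against 2.4e-05 over all tested genes, and none passed the test at the cutoff (a change of 1.5-fold or more and an adjusted p no higher than 0.05).

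**Figure D1:**
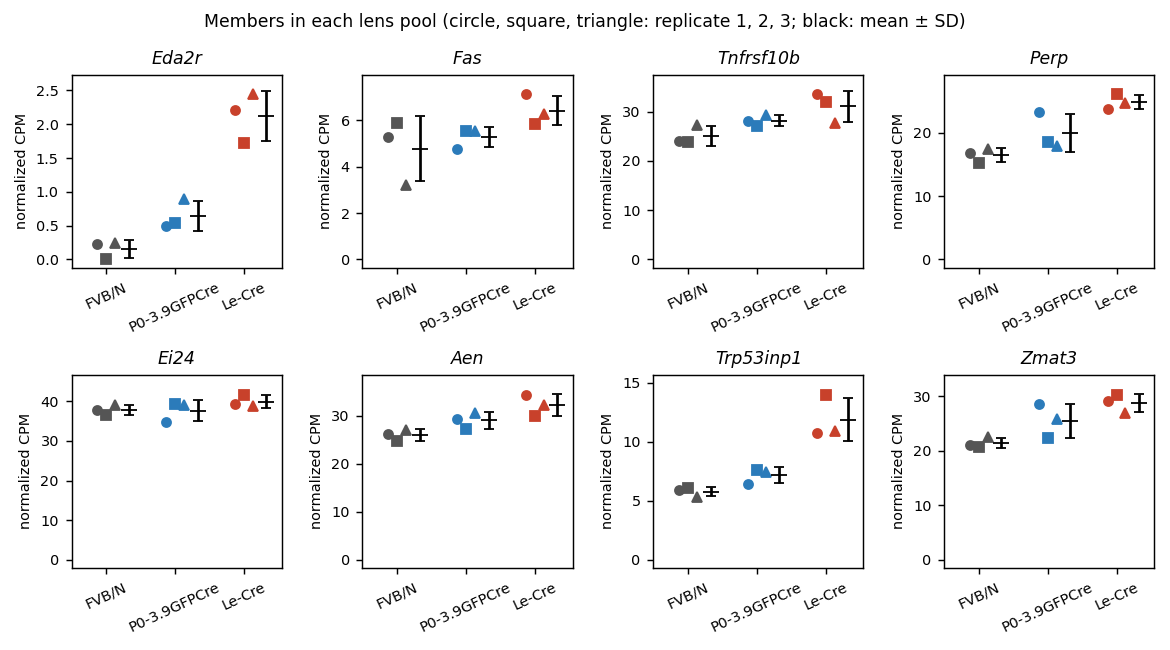
Normalized CPM of the 8 members (vertical axes, each from 0) in every lens pool of the 3 lines (horizontal axes), with circle, square and triangle for replicates 1, 2 and 3 and the mean ± SD in black. *Eda2r*, *Perp* and *Trp53inp1* separate *Le-Cre* from both other lines, whereas *Ei24* overlaps among all lines.

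*Eda2r* (ENSMUSG00000034457, chrX:97333840-97377216, minus strand) encodes the receptor for the A2 isoform of ectodysplasin and was the least abundant member. It was measured at 0.227, 0 and 0.246 CPM in *FVB/N* replicates 1 to 3, at 0.494, 0.533 and 0.898 in *P0-3.9GFPCre* and at 2.21, 1.72 and 2.44 in *Le-Cre*. The 3 lines did not overlap, and the *P0-3.9GFPCre* pools lay between the other two lines. Behind these values were 6, 0 and 6 expected counts in *FVB/N*, 12, 11 and 20 in *P0-3.9GFPCre* and 62, 44 and 54 in *Le-Cre*, so the *FVB/N* level rests on 12 counts in all. The fitted difference between *Le-Cre* and *FVB/N* was 12.9-fold, or 3.68 on the log2 scale with a standard error (SE) of 0.65. This size depended on the method, as DESeq2 with a prior on the fold changes gave 0.56. Between *P0-3.9GFPCre* and *FVB/N* the log2 difference was 1.97 (SE 0.67, 95% interval 0.49 to 3.44), which did not pass the test (adjusted p = 0.651 by edgeR). DESeq2 with the prior gave 0.17 for this comparison.

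*Eda2r* lies on the X chromosome, and the Y-linked level was lowest in *Le-Cre*, where *Eda2r* was highest. *FVB/N* replicate 2, with *Eda2r* at 0, had the highest Y-linked level, 194 CPM, and 0.473 CPM of the X-inactivation transcript *Xist*, which measured 477 and 482 CPM in the other *FVB/N* pools. In *Le-Cre*, replicate 2 had the lowest *Eda2r* level, 1.72 CPM, and a Y-linked level of 71.9 CPM, against 1.53 and 0.633 in replicates 1 and 3. In *P0-3.9GFPCre*, replicate 3 had the lowest Y-linked level, 1.66 CPM, and the highest *Eda2r* level, 0.898 CPM. Replicate 2 of that line had a higher Y-linked level than replicate 1 (135 against 53.9 CPM) and also more *Eda2r* (0.533 against 0.494 CPM). With the Y-linked level as a covariate the log2 difference was 3.14 between *Le-Cre* and *FVB/N* and 1.65 between *P0-3.9GFPCre* and *FVB/N*. As *Le-Cre* and *FVB/N* do not overlap in the Y-linked level, the first value cannot separate sex makeup from line.

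**Figure D2:**
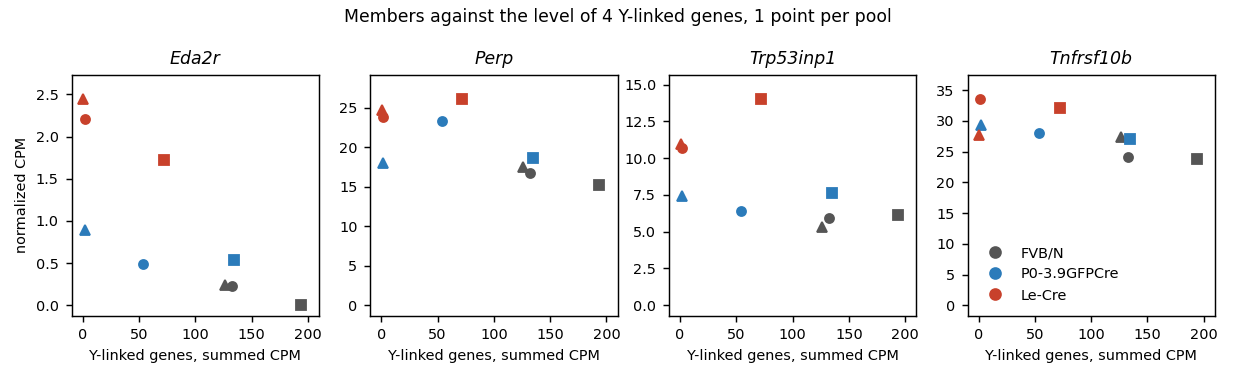
Normalized CPM of *Eda2r*, *Perp*, *Trp53inp1* and *Tnfrsf10b* (vertical axes) against the summed CPM of 4 Y-linked genes (horizontal axes), 1 point per pool, coloured by line, with circle, square and triangle for replicates 1, 2 and 3. *Le-Cre* replicate 2, at a Y-linked level of 71.9 CPM, has the highest *Trp53inp1* level and the lowest *Eda2r* level of its line.

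*Fas* (ENSMUSG00000024778, chr19:34290666-34327772, plus strand) encodes the receptor for Fas ligand, which recruits FADD and caspase-8. *FVB/N* replicates 1 to 3 had 5.26, 5.89 and 3.19 CPM, *P0-3.9GFPCre* had 4.77, 5.52 and 5.52 and *Le-Cre* had 7.12, 5.85 and 6.29. *FVB/N* replicate 2 lay just above the lowest *Le-Cre* pool, so these lines overlapped, and *FVB/N* replicate 3 stood low. In that pool RSEM also assigned *Fas* an effective length of 1211 bases, against 1436 in the other 8 pools, which reflects its split of the reads between the 2 listed isoforms. *Fas* did not pass the test in *Le-Cre* against *FVB/N* (log2 difference 0.43, SE 0.21, 95% interval -0.03 to 0.88, adjusted p = 0.668 by edgeR). The log2 difference was 0.21 without *FVB/N* replicate 3 and 0.60 without *FVB/N* replicate 2. In *P0-3.9GFPCre* against *FVB/N* it was 0.14 (95% interval -0.32 to 0.60, adjusted p = 0.923 by edgeR) and turned to -0.081 without *FVB/N* replicate 3.

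*Tnfrsf10b* (ENSMUSG00000022074, chr14:69767472-69784411, plus strand), the mouse receptor for the death ligand TRAIL, was the most abundant of the 3 receptors. It was measured at 24.1, 23.7 and 27.4 CPM in *FVB/N*, at 28.0, 27.1 and 29.4 in *P0-3.9GFPCre* and at 33.5, 32.0 and 27.6 in *Le-Cre*. All *Le-Cre* pools exceeded the *FVB/N* pools, replicate 3 of *Le-Cre* by little, and the *P0-3.9GFPCre* pools overlapped with both. *Tnfrsf10b* had a log2 difference of 0.31 (SE 0.09, 95% interval 0.11 to 0.51) in *Le-Cre* against *FVB/N*. It was the only 1 of the 3 tested members with an unadjusted p under 0.05, a level at which 3.6% of all tested genes were higher in *Le-Cre*, and it did not pass after adjustment over all genes (adjusted p = 0.361 by edgeR). In *P0-3.9GFPCre* the log2 difference was 0.17 (SE 0.09, 95% interval -0.03 to 0.37, adjusted p = 0.770 by edgeR).

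*Perp* (ENSMUSG00000019851, chr10:18845020-18857073, plus strand) encodes a tetraspan membrane protein that acts as a p53 effector in apoptosis and is also a component of desmosomes. Its levels were 16.8, 15.2 and 17.5 CPM in *FVB/N*, 23.4, 18.6 and 18.0 in *P0-3.9GFPCre* and 23.8, 26.1 and 24.7 in *Le-Cre*. All *Le-Cre* pools lay above all other pools, with *P0-3.9GFPCre* replicate 1 close beneath them and the other two *P0-3.9GFPCre* pools just above *FVB/N*. The *Le-Cre* mean was 1.51-fold that of *FVB/N* (log2 difference 0.59, SE 0.11, and 0.69 with the Y-linked level as a covariate). *Perp* did not pass the test in *P0-3.9GFPCre* (log2 difference 0.28, SE 0.11, 95% interval 0.04 to 0.51, adjusted p = 0.662 by edgeR). This difference was 0.15 without *P0-3.9GFPCre* replicate 1 and 0.35 without *P0-3.9GFPCre* replicate 3. *Perp* was set beside the plaque proteins of desmosomes. Of the 8 listed plaque genes 7 were tested and 0 passed the test in either line, with median log2 differences of -0.07 in *P0-3.9GFPCre* and 0.15 in *Le-Cre*. The largest differences were those of *Pkp1*, a plakophilin, at -0.65 in *P0-3.9GFPCre* and -0.45 in *Le-Cre*, of *Evpl*, which encodes envoplakin, at -0.32 and 0.66, and of *Dsp*, which encodes desmoplakin, at -0.24 and -0.47. These 3 genes had mean levels under 1 CPM in all lines.

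*Ei24* (ENSMUSG00000062762, chr9:36779159-36797393, minus strand) encodes a transmembrane protein of the endoplasmic reticulum that also acts in autophagy. It was measured at 37.8, 36.6 and 39.1 CPM in *FVB/N*, at 34.8, 39.3 and 39.0 in *P0-3.9GFPCre* and at 39.4, 41.7 and 38.8 in *Le-Cre*. The 3 lines overlapped, and *Ei24* had the narrowest intervals of all members. Its log2 difference from *FVB/N* was 0.08 in *Le-Cre* (95% interval -0.08 to 0.24, adjusted p = 0.838 by edgeR) and -0.00498 in *P0-3.9GFPCre* (95% interval -0.16 to 0.15, adjusted p = 0.995 by edgeR). A 1.5-fold change of *Ei24*, which is 0.58 on the log2 scale, thus lay outside both intervals. The antisense gene *Gm26787* overlaps *Ei24* and reached at most 5.08 counts in a pool. *Ei24* transcripts share 6.31% of their 51-base stretches with other genes, among which *Gm26787* is listed first by the number of shared stretches.

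*Aen* (ENSMUSG00000030609, chr7:78895854-78911209, plus strand) encodes a nuclear exonuclease that degrades DNA and RNA during apoptosis. *FVB/N* replicates 1 to 3 had 26.2, 24.7 and 27.1 CPM, *P0-3.9GFPCre* had 29.3, 27.2 and 30.6 and *Le-Cre* had 34.4, 30.0 and 32.3. Every pool of either CRE line lay above every *FVB/N* pool, and the CRE lines overlapped with each other. In *Le-Cre* the log2 difference was 0.31 (SE 0.08), and 0.19 with the Y-linked level as a covariate. *Aen* did not pass the test in *P0-3.9GFPCre* (log2 difference 0.16, SE 0.08, 95% interval -0.01 to 0.33, adjusted p = 0.747 by edgeR), and with that covariate the difference was 0.097. The order of the lines changed with the unit. In TPM the mean was 12.9 ± 1.84 in *FVB/N*, 16.3 ± 1.55 in *P0-3.9GFPCre* and 14.9 ± 0.442 in *Le-Cre*, and the CRE lines then stood the other way round, within overlapping ranges. The effective length that RSEM gave *Aen*, from the mix of its 9 listed isoforms, was 1849, 2108 and 2423 bases in *FVB/N*, 1861, 2011 and 1995 in *P0-3.9GFPCre* and 2413, 2368 and 2193 in *Le-Cre*. It was longer in every *Le-Cre* pool than in every *P0-3.9GFPCre* pool, and a greater length lowers TPM at the same count.

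**Figure D3:**
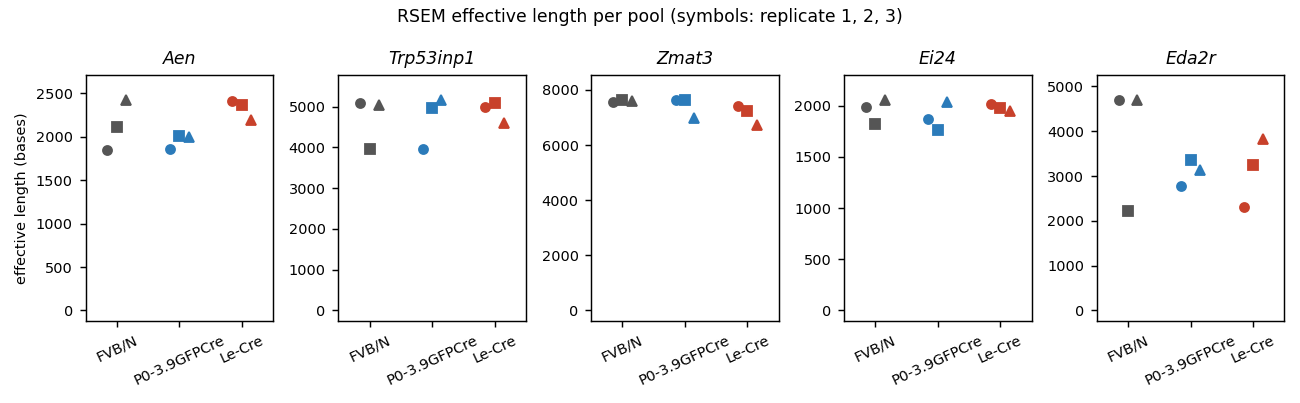
Effective length in bases that RSEM assigned to 5 members with several isoforms (vertical axes, each from 0) in every pool of the 3 lines, with circle, square and triangle for replicates 1, 2 and 3. *Aen* is longer in all *Le-Cre* pools (2193 to 2413 bases) than in all *P0-3.9GFPCre* pools (1861 to 2011 bases), and *Eda2r* varies from 2229 to 4702 bases.

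*Trp53inp1* (ENSMUSG00000028211, chr4:11156431-11174379, plus strand) encodes a nuclear cofactor of p53 that also moves to autophagosomes and binds proteins of the LC3 and GABARAP family. Its levels were 5.90, 6.11 and 5.32 CPM in *FVB/N*, 6.42, 7.65 and 7.45 in *P0-3.9GFPCre* and 10.7, 14.0 and 10.9 in *Le-Cre*. In CPM the lines did not overlap, and the step from *P0-3.9GFPCre* to *Le-Cre* was larger than that from *FVB/N* to *P0-3.9GFPCre*. In TPM, *FVB/N* (1.07 to 1.66) and *P0-3.9GFPCre* (1.56 to 1.83) overlapped. The *Le-Cre* mean was 2.06-fold that of *FVB/N* (log2 difference 1.04, SE 0.14), and 1.19 on the log2 scale with the Y-linked level as a covariate. In *P0-3.9GFPCre* the log2 difference was 0.31 (SE 0.14, 95% interval 0.0036 to 0.62), which did not pass the test (adjusted p = 0.722 by edgeR). None of the 6 listed autophagy partners passed the test in either line, with medians of 0.03 in *P0-3.9GFPCre* and -0.0066 in *Le-Cre*. Their largest differences were those of *Map1lc3a* (-0.15 and -0.27), *Gabarapl2* (-0.14 and -0.10) and the autophagy receptor gene *Sqstm1* (0.08 and 0.11).

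*Zmat3* (ENSMUSG00000027663, chr3:32334792-32366014, minus strand) encodes a zinc finger protein that binds RNA and acts on the splicing and stability of other transcripts. It was measured at 21.0, 20.7 and 22.4 CPM in *FVB/N*, at 28.5, 22.3 and 25.7 in *P0-3.9GFPCre* and at 29.1, 30.3 and 27.0 in *Le-Cre*. The *Le-Cre* pools all lay above the *FVB/N* pools, while the *P0-3.9GFPCre* pools overlapped with both. The *Le-Cre* mean was 1.35-fold that of *FVB/N* (log2 difference 0.43, SE 0.09). *Zmat3* did not pass the test in *P0-3.9GFPCre* (log2 difference 0.26, SE 0.09, 95% interval 0.05 to 0.46, adjusted p = 0.662 by edgeR). This difference was 0.17 without *P0-3.9GFPCre* replicate 1 and 0.35 without *P0-3.9GFPCre* replicate 2.

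**Figure D4:**
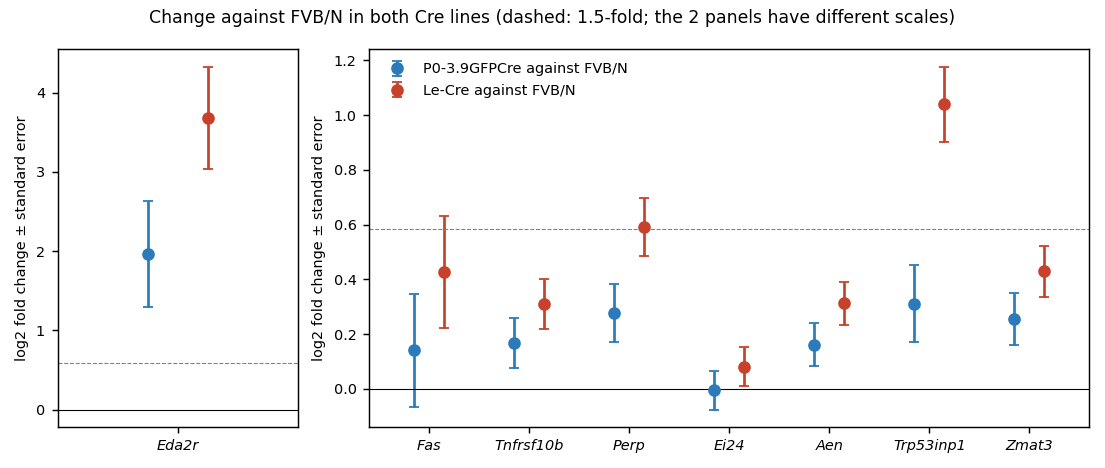
Log2 fold change ± SE against *FVB/N* (vertical axes) for each member in *P0-3.9GFPCre* and *Le-Cre*, with *Eda2r* in a panel of its own scale and the dashed line at 1.5-fold. Each *Le-Cre* value is above its *P0-3.9GFPCre* value, and both values of *Ei24* lie near 0. Both comparisons share the *FVB/N* pools.

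Whether the other CRE line also raised these genes is asked by *P0-3.9GFPCre* against *FVB/N*. No member passed the cutoff with edgeR or with limma on TPM, and edgeR called 0% of all tested genes in either direction. DESeq2, with or without a prior, gave no adjusted p for *Eda2r*, *Fas*, *Perp*, *Trp53inp1* and *Zmat3*, so these could not pass. Without the prior, *Eda2r* had an unadjusted p of 0.0020 by DESeq2. *Tnfrsf10b*, *Ei24* and *Aen* received an adjusted p from DESeq2 and did not pass. At an unadjusted p under 0.05, *Eda2r*, *Perp*, *Trp53inp1* and *Zmat3* were higher, 4 of the 8 members, beside 3.41% of all tested genes. All pools of *P0-3.9GFPCre* lay above all of *FVB/N* for *Eda2r*, *Perp*, *Aen* and *Trp53inp1*, also 4 of 8, beside 6.02% of all tested genes. These 5 genes are the ones picked for a high *Le-Cre* and low *FVB/N* level, and they are compared here with the same *FVB/N* pools. Of the 3 other members 0 had an unadjusted p under 0.05. The *P0-3.9GFPCre* pools did not keep 1 order over the members. Replicate 1 was highest for *Perp* and *Zmat3*, replicate 2 for *Trp53inp1* and *Ei24*, and replicate 3 for *Eda2r*, *Tnfrsf10b* and *Aen*.

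Against *P0-3.9GFPCre*, *Le-Cre* had higher mean CPM for all 8 members, with a median log2 difference of 0.23. In TPM, which was not TMM-normalized, the log2 difference was below 0 for *Aen* (-0.13 with a pseudocount of 0.1) and *Ei24* (-0.0157). The median over all tested genes was -0.040 in that fit, so *Ei24* lay above it and *Aen* below it. All *Le-Cre* pools lay above all *P0-3.9GFPCre* pools for *Eda2r*, *Fas*, *Perp* and *Trp53inp1*, 4 of the 8 members, beside 6.74% of all tested genes. For the picked genes the log2 differences were 1.72 for *Eda2r*, 0.73 for *Trp53inp1*, 0.31 for *Perp*, 0.17 for *Zmat3* and 0.15 for *Aen*. None of the 3 tested members passed, and edgeR called 0% of all tested genes in either direction. Their 95% intervals ran from -0.17 to 0.74 for *Fas*, from -0.06 to 0.34 for *Tnfrsf10b* and from -0.07 to 0.24 for *Ei24*.

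Per length, in TPM, the members spanned a wide range. In *FVB/N* the mean was 20.3 ± 1.18 TPM for *Ei24*, 12.9 ± 1.84 for *Aen*, 9.33 ± 0.413 for *Perp*, 8.40 ± 0.407 for *Tnfrsf10b*, 3.65 ± 0.889 for *Fas*, 2.94 ± 0.0361 for *Zmat3*, 1.32 ± 0.307 for *Trp53inp1* and 0.0333 ± 0.0289 for *Eda2r*. *Perp* overlapped with *Tnfrsf10b* and *Fas* with *Zmat3*, and the other neighbors in this order did not overlap. In *Le-Cre* the order of the means was the same, but *Perp*, at 14.5 ± 1.34 TPM, now overlapped with *Aen*, at 14.9 ± 0.442, and no longer with *Tnfrsf10b*, at 10.7 ± 1.42. *Eda2r* reached 0.757 ± 0.229 TPM in *Le-Cre* and was still the lowest member. In a bulk sample, more transcript per cell and more cells with the transcript cannot be told apart.

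Among the listed ligands *Eda* had the highest level in each line, above the mean of the receptor gene *Eda2r* (0.158, 0.641 and 2.12 CPM in *FVB/N*, *P0-3.9GFPCre* and *Le-Cre*). *Fasl* and *Tnf* did not pass the filter on low counts, and *Fasl* averaged 0.0143 CPM in *FVB/N* and 0.0874 in *Le-Cre*. *Eda*, which encodes ectodysplasin in both isoforms, had 3.45 ± 0.434 CPM in *FVB/N*, 2.72 ± 0.324 in *P0-3.9GFPCre* and 2.95 ± 0.205 in *Le-Cre* (log2 differences of -0.34 and -0.22), and *Tnfsf10*, which encodes TRAIL, had 0.734, 0.817 and 0.668 CPM. Neither passed the test. Of the 9 other death receptors and decoys 8 were tested and 0 passed in either line, and their median log2 difference in *Le-Cre* was 0.19. *Tnfrsf19*, an orphan receptor, differed by 0.37 in *Le-Cre* (adjusted p = 0.595 by edgeR), *Tnfrsf26* by 0.34 and *Tnfrsf1a*, the main TNF receptor, by 0.20. In *P0-3.9GFPCre* the differences were 0.19 for *Tnfrsf19*, 0.19 for *Tnfrsf26* and -0.43 for *Tnfrsf1a*. All 11 adaptors and inhibitors were tested and 0 passed, with a median of 0.04 in *Le-Cre*, and among them were the initiator caspase gene *Casp8* (0.60, at 0.708 ± 0.447 CPM in *FVB/N*), the TNF receptor adaptor gene *Tradd* (0.12) and *Traf2* (0.0020). In *P0-3.9GFPCre* these genes differed by 0.06 for *Casp8*, 0.52 for *Tradd* and -0.26 for *Traf2*.

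Paralogs are not a like comparison for the members, as 5 members were picked for their rise in *Le-Cre*. None of the 6 tested paralogs passed the test in either line, and all 6 had log2 differences below 0 in *Le-Cre*, with a median of -0.08. *Trp53inp2*, the paralog of *Trp53inp1*, differed by -0.07 in *Le-Cre* and -0.21 in *P0-3.9GFPCre*. The zinc finger genes *Zmat5* and *Zmat1* differed by -0.11 and -0.08 in *Le-Cre* and by 0.17 and 0.16 in *P0-3.9GFPCre*. p53 and its regulators were listed as well. Of 8 tested genes 0 passed in *Le-Cre*, with a median of 0.09, and *Trp53* itself had 11.4 ± 0.128 CPM in *FVB/N*, 12.8 ± 1.69 in *P0-3.9GFPCre* and 13.6 ± 0.675 in *Le-Cre* (log2 difference 0.26 in *Le-Cre*, adjusted p = 0.591 by edgeR). *Mdm4*, a p53 inhibitor, differed by 0.15 in *Le-Cre* and 0.18 in *P0-3.9GFPCre*, and the checkpoint kinase gene *Chek2* by 0.10 and -0.22.

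Other p53 target genes were taken from a list of 25, of which 24 were tested. In *Le-Cre*, 19 of them had a log2 difference above 0, beside 49.0% of all tested genes, and their median was 0.26. At an unadjusted p under 0.05, 8 were higher, beside 3.6% of all tested genes, and 1 passed the test, beside 0.045%. That gene was *Cdkn1a*, the inhibitor of cyclin-dependent kinases that halts the cell cycle, at 1.23 ± 0.0526 CPM in *FVB/N*, 3.66 ± 2.12 in *P0-3.9GFPCre* and 11.4 ± 0.384 in *Le-Cre* (log2 difference 3.21, adjusted p = 0.0331 by edgeR). Its call was lost with the Y-linked level as a covariate (adjusted p = 0.248 by edgeR), in TPM (0.106 and 0.0855 by limma with a pseudocount of 0.1 and 1) and without any 1 of the *FVB/N* or *Le-Cre* pools (0.0522 to 0.174 by edgeR), and its adjusted p over all alternatives ran from 2.67e-17 to 0.248. *Ddit4l*, an inhibitor of mTOR signaling, differed by 2.60 (adjusted p = 0.211 by edgeR) and the stress cytokine gene *Gdf15* by 1.49 (adjusted p = 0.431 by edgeR). Both were low in *FVB/N*, at 0.332 ± 0.268 CPM for *Ddit4l* and 0.480 ± 0.195 CPM for *Gdf15*. In *P0-3.9GFPCre* the median was 0.05 and 0 passed, with *Cdkn1a* at 1.58 (adjusted p = 0.590 by edgeR), *Ddit4l* at 1.47 and *Gdf15* at 0.75. The *Cdkn1a* level was 3.74, 1.502 and 5.75 CPM in *P0-3.9GFPCre* replicates 1 to 3, an order shared by *Aen* and *Tnfrsf10b* among the members and the reverse of that of the Y-linked level (53.9, 135 and 1.66 CPM). The list was drawn up with the rise of some of its genes in these pools known, so it is no independent evidence.

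**Figure D5:**
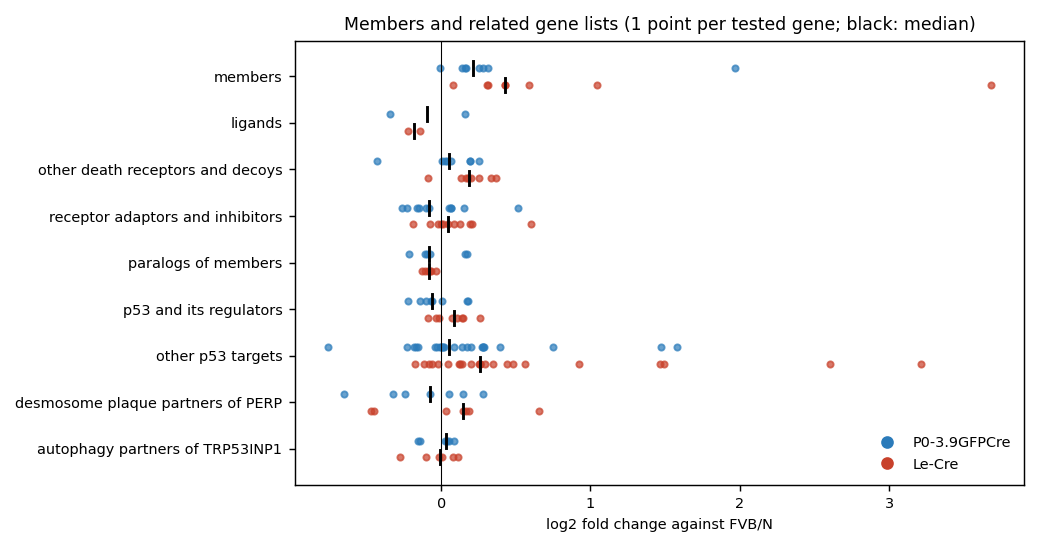
Log2 fold change against *FVB/N* (horizontal axis) of the members and of 8 related gene lists (rows), 1 point per tested gene for *P0-3.9GFPCre* and for *Le-Cre*, with black bars at the medians. Only *Eda2r* (3.68) among the members and *Cdkn1a* (3.21) and *Ddit4l* (2.60) among the other p53 targets reach beyond 2 in *Le-Cre*. Paralogs and autophagy partners stay near 0. *Eda2r* is 1 of the 5 members picked for their rise in *Le-Cre*. Both comparisons share the *FVB/N* pools.

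Genes with the most similar pattern over the 9 pools were found by Pearson's r of log2 CPM, among 13040 genes with a mean of at least 1 CPM (13041 for *Eda2r*). For *Perp* the closest was *Igf2* (r = 0.975), for *Aen* it was *Hsd3b2* (r = 0.969), for *Ei24* *Sh2d4b* (r = 0.960) and for *Zmat3* *Cyyr1* (r = 0.952). *Tnfrsf10b* was closest to *Chrdl1* (r = 0.949), *Eda2r* to *Vps33a* (r = 0.947), *Trp53inp1* to *Zfp143* (r = 0.937) and *Fas* to *Kynu* (r = 0.933). The points share their library, their line and the sex makeup of their pool, and with 9 points many genes reach such values. Among the members, *Perp* and *Zmat3* as well as *Eda2r* and *Aen* followed each other most closely, with r = 0.93 for each pair.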

How the data were processed

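RNA-Seq of polyadenylated RNA from whole newborn lenses was analysed in 9 pools grouped by line from the sample labels. The authors trimmed single-end reads with Trimmomatic 0.36, mapped them to GRCm38 and quantified genes with RSEM 1.3.0. The deposited expected counts are RSEM's estimates of reads per gene and are not normalized, and the deposited TPM values are scaled by RSEM for length and library size. RSEM's posterior SD reached at most 1.28% of a member's count. The gene annotation behind the tables is not given in the sources used here, and 47224 of 47729 identifiers matched GENCODE M21, the source of gene coordinates.

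Expected counts were rounded and tested in R 4.3.3 with edgeR 4.0.16 (TMM, filterByExpr, quasi-likelihood test over all 9 pools, Benjamini-Hochberg over 15557 genes). All 8 members passed the filter. A gene was called at 1.5-fold or more and an adjusted p no higher than 0.05. Each SE was obtained from the log2 fold change and the root of its F statistic. Alternatives were DESeq2 1.42.0 with and without a prior, RLE normalization, other filters, only the compared lines, a replicate block, a Y-linked covariate, limma 3.58.1 on log2(TPM + 0.1) and log2(TPM + 1), and each pool left out. The test was checked on simulated counts. All 36 pairs of pools differed in their values. With 3 pools against 3, the smallest two-sided p of an exact permutation test is 0.1.

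The members and gene lists were chosen with earlier results of these data known. Named from each list were genes past the cutoff and up to 3 tested genes with the largest change against *FVB/N*. Other genes (*Fasl*, *Tnf*, *Krt14*, *Krt12* and *Xist*) were chosen after their values were seen.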

Additional observations from a re-analysis of the deposited data

How the results depend on the processing

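Of 456 log2 differences of single members under the alternatives, 10 changed sign. For tested values only direction and side of the threshold were compared, and 12 of the values without a test moved by more than 1 SD. The size of tested values moved too, as for *Eda2r* in *P0-3.9GFPCre*, from 1.97 to 0.17 with the DESeq2 prior. In the same comparison *Aen* moved from 0.16 to 0.34 in TPM with a pseudocount of 0.1. The TPM values were not TMM-normalized. With that pseudocount their median over all tested genes was 0.071 in *P0-3.9GFPCre* against *FVB/N* and -0.040 in *Le-Cre* against *P0-3.9GFPCre*. With a pseudocount of 1 these medians were 0.052 and -0.029. The sign changes were those of *Fas* in *P0-3.9GFPCre* (-0.081 without *FVB/N* replicate 3, in a range from -0.081 to 0.31 over the fits with 1 pool left out), of *Ei24* in *P0-3.9GFPCre* (0.0067 with the Y-linked covariate, 0.11 and 0.11 in TPM with a pseudocount of 0.1 and 1, 0.02 without *FVB/N* replicate 3 and 0.052 without *P0-3.9GFPCre* replicate 1, in a range from -0.033 to 0.052 with 1 pool left out), and of *Ei24* (-0.0157 and -0.0150) and *Aen* (-0.13 and -0.12) in *Le-Cre* against *P0-3.9GFPCre* in TPM.

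The count of members past the cutoff in *Le-Cre* against *FVB/N*, a description because 5 members were picked on it, was 1 (*Trp53inp1*) with edgeR. It was 3 (*Eda2r*, *Perp* and *Trp53inp1*) with DESeq2 without a prior and 3 without a filter on low counts. It was 0 with the replicate block, 0 with the Y-linked covariate and 0 in TPM with either pseudocount. Leaving out 1 pool gave 0 to 2 members, 0 without any 1 of the *FVB/N* or *Le-Cre* pools and 2 (*Perp* and *Trp53inp1*) without *P0-3.9GFPCre* replicate 1. In *Le-Cre* against *P0-3.9GFPCre*, DESeq2 without a prior and the fit without a filter each gave 1 member, *Trp53inp1*, in place of 0. In *P0-3.9GFPCre* against *FVB/N* the count was 0 in every setting run. With DESeq2 this was fixed for *Eda2r*, *Fas*, *Perp*, *Trp53inp1* and *Zmat3*, which received no adjusted p there. The cause of these shifts was not tested.

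Over all genes, the count for *Le-Cre* against *FVB/N* was 10, and it became 54 with DESeq2 without a prior, 131 without a filter, 5 with a mean of at least 10 counts, 2 with the replicate block, 0 with the Y-linked covariate, 0 and 1 in TPM with a pseudocount of 0.1 and 1, and 0 to 10 with 1 pool left out (1 without *FVB/N* replicate 1 or 3, and 0 without *FVB/N* replicate 2 or any 1 *Le-Cre* pool). For *P0-3.9GFPCre* against *FVB/N* it was 0, and 1 and 4 with DESeq2 with and without a prior, 93 without a filter and 0 to 14 with 1 pool left out (14 and 1 without *FVB/N* replicates 2 and 3, and 3 without *P0-3.9GFPCre* replicate 2). For *Le-Cre* against *P0-3.9GFPCre* it was 0, and 4 and 38 with DESeq2 with and without a prior, 123 without a filter, 31 with only the compared lines, 1 in TPM with a pseudocount of 1 and 0 to 18 with 1 pool left out (18 without *FVB/N* replicate 2).

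Replicate numbers did not pair the pools. The labels of 1 *FVB/N* pool, replicate 3, give another number in its description than in its title, and the title was used. Deviations from the line means correlated at -0.10 to 0.12 over the 9 pairs of pools with the same number and at -0.17 to 0.12 over the 18 with different numbers. The replicate block moved the count for *Le-Cre* against *FVB/N* from 10 to 2 genes. *Fas* is limited by the spread of its *FVB/N* pools (4.78 ± 1.41 CPM), and *Eda2r* is limited by its 12 counts in *FVB/N*.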
